A study of Mus musculus with 6 samples.

Results

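The 10 C-type lectin receptors described here are myeloid surface receptors that were picked by symbol, namely Clec4a1, Clec4a2, Clec4a3, Clec4d, Clec4e, Clec4n, Clec5a, Clec7a, Clec12a and Clec10a, from a table of 26082 different entries. Of these receptors, 9 had a row of their own. Clec7a stood in a joined entry with its chromosomal neighbor Olr1, which encodes the oxidized LDL receptor and is itself a C-type lectin, so every value given for Clec7a is that of both genes together. The RNA-Seq samples were 6 libraries of bone marrow leukemia cells that a cell sorter had isolated from C57BL/6J mice, with MLL-AF9 as the transduced gene in both groups. In 3 samples the mice had received vehicle, and in 3 they had received the p53-MDM2 interaction inhibitor DS-5272 by mouth at 80 mg/kg, 24 h before the cells were taken. Per the methods, the MLL-AF9 leukemias were made by retroviral transduction of c-Kit+ bone marrow cells, with GFP coexpressed, and repeated passage through recipient mice, so the model is a serially transplanted leukemia, and the age of the mice and the number of clones are not given in the sources used here. Whether each library came from a mouse of its own is not stated outright, and p-values measure the spread between these libraries.

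C-type lectin receptors bind glycans, glycolipids or products of dying cells through a lectin-like domain, and in myeloid cells they carry activating or inhibitory signals. Dectin-2 (Clec4n), MCL (Clec4d) and Mincle (Clec4e) pair with the ITAM-bearing Fc receptor gamma chain (Fcer1g), while Dectin-1 (Clec7a) carries an ITAM-like motif of its own, and both routes lead through the kinase SYK to the CARD9 complex and NFKB. MDL-1 (Clec5a) signals through DAP12, which Tyrobp encodes, whereas DCIR1 (Clec4a2) and MICL (Clec12a) hold an inhibitory motif that recruits the phosphatases encoded by Ptpn6 and Ptpn11.

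FPKM values, fragments per length of transcript and per number of mapped fragments, are normalized for transcript length and library size. They summed to between 445316 and 661184 per sample, and the depth read from the steps of low values was 0.539 to 0.885 times that of vehicle replicate 1 in the other samples, with all 3 DS-5272 samples shallower than every vehicle sample. Of 10 leukemia marker genes 7 had a row of their own. Meis1, Pbx3, Cd34 and Myb did not pass the test (Myb did when blocked on replicate number, adjusted p = 0.037), at 66.1 to 110 FPKM for Meis1 and 128 to 158 FPKM for Pbx3 in the 6 samples, while Kit was lower with DS-5272 (means of 35.96 and 8.90 FPKM, limma adjusted p = 0.0046) and Itgam (168 and 754 FPKM, adjusted p = 0.0031) and Mef2c (0.169 and 1.92 FPKM, adjusted p = 0.0031) were higher. The p53 target Mdm2 was at 27.1, 36.3 and 40.0 FPKM across the vehicle samples (replicates 1, 2 and 3) and reached 42.6, 78.8 and 210 FPKM after DS-5272, in the same order. For Mdm2, whose product is the protein the drug binds, the groups did not overlap, and the call missed the threshold (limma adjusted p = 0.073, and 0.015 when blocked on replicate number). Of 6 p53 target genes 2 were called higher, against 24.2% of all tested genes. They were Sesn2 (means of 7.19 and 32.4 FPKM, limma adjusted p = 0.0059) and Trp53inp1 (7.70 and 36.9 FPKM, adjusted p = 0.029). Mdm2, Cdkn1a, Ccng1 and Bbc3 passed when blocked on replicate number, a fit that called 30.3% of all tested genes higher. Bbc3, at 3.85 FPKM in DS-5272 replicate 1, lay within its vehicle range of 3.39 to 9.43 FPKM there.

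DS-5272-treated MLL-AF9 cells had higher mRNA of 8 of the 10 C-type lectin receptors with limma (adjusted p below 0.05), while none was lower. The same call for higher expression was made for 24.2% of the 11130 tested genes, for lower expression for 22.0%, and for either for 46.3%. Every one of the 10 receptors passed the filter of a mean of at least 1 FPKM. The median log2 fold change (log2FC, on the scale of log2(FPKM + 1), given below with its standard error, SE) was 1.84 over the receptors and 0.04 over all tested genes. For 8 receptors all 3 DS-5272 values lay above all 3 vehicle values, which held for 32.1% of the tested genes, and for no receptor was it the reverse, which held for 29.7%. Clec12a and Clec10a were the receptors that did not pass. Over all genes, 2697 were higher and 2451 lower with FPKM as deposited, against 2233 and 3179 with upper-quartile scaling and 1717 and 3536 with scaling to one total, while the receptor counts stayed at 8 and 0. For 1 gene taken alone, the smallest exact permutation p that 3 samples per group allow is 0.1.

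**Figure D1:**
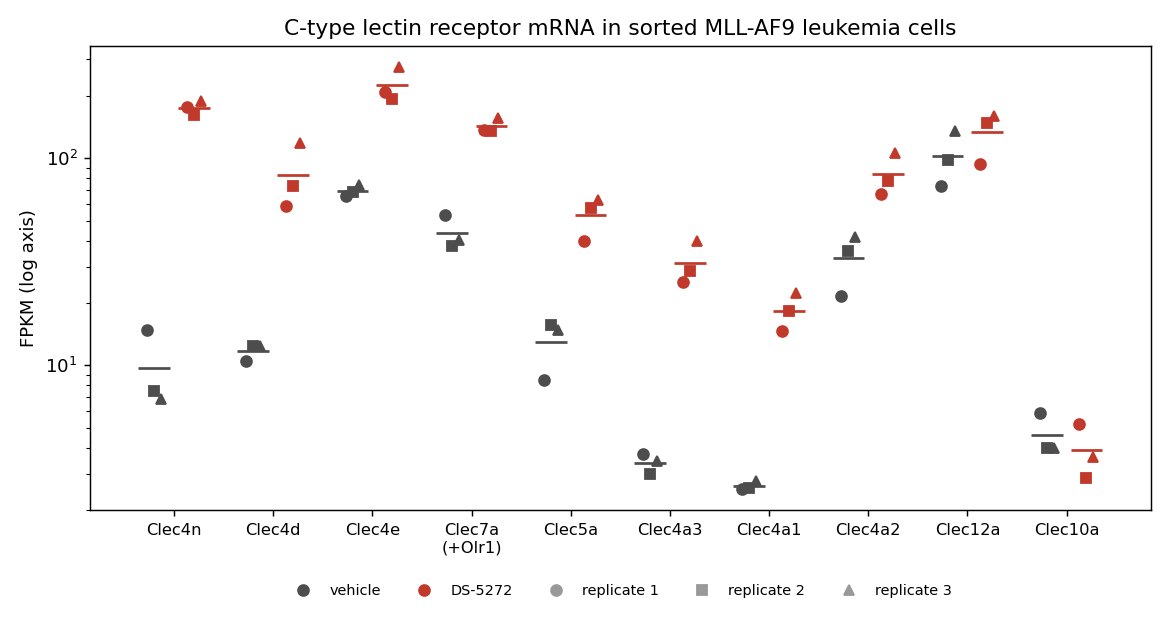
FPKM on a log axis of the 10 C-type lectin receptors in each of the 6 samples, with vehicle in gray, DS-5272 in red, a marker shape for each replicate number and a horizontal line at each group mean. The groups are apart for 8 receptors and overlap for Clec12a and Clec10a. Clec7a is the joined entry with Olr1.

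Among the receptors that couple to SYK, Dectin-2 showed the largest rise. Clec4n was at 14.9, 7.52 and 6.86 FPKM across the vehicle samples (replicates 1, 2 and 3) and reached 177, 161 and 188 FPKM after DS-5272, in the same order. The vehicle samples were thus all low, with replicate 1 the highest of them, and the treated samples lay close to each other. Its log2FC was 4.11 (SE 0.26, limma adjusted p = 0.00061), and the ratio of the group means was 18.0.

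Its chromosomal neighbor Clec4d encodes MCL, a receptor for mycobacterial glycolipid that forms complexes with Mincle. Clec4d was at 10.4, 12.4 and 12.3 FPKM with vehicle and at 58.5, 73.1 and 118 FPKM with DS-5272, in the order of the replicate numbers. DS-5272 replicate 3 was the highest sample, and the groups did not overlap (log2FC 2.67, SE 0.25, limma adjusted p = 0.0012). Clec4e, which encodes Mincle, a sensor of glycolipids and of a nuclear protein set free by dying cells, started from a far higher level. It was at 65.6, 68.5 and 74.5 FPKM in the vehicle samples and at 208, 193 and 276 FPKM in the DS-5272 samples. The vehicle samples were close together, and the ratio of the group means was 3.24 (log2FC 1.67, SE 0.15, limma adjusted p = 0.0012).

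The joined entry of Clec7a, the beta-glucan receptor Dectin-1, and Olr1 had 52.9, 37.6 and 40.2 FPKM with vehicle and 137, 136 and 156 FPKM with DS-5272. As with Clec4n, vehicle replicate 1 was the highest of its group. The entry rose by 1.71 on the log2 scale (SE 0.15, limma adjusted p = 0.0010), and how much of the level or of the rise belongs to Clec7a cannot be told apart from the share of Olr1.

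MDL-1, the DAP12-coupled activating receptor of myeloid cells, rose as well. Clec5a was at 8.51, 15.6 and 14.9 FPKM across the vehicle samples (replicates 1, 2 and 3) and reached 39.7, 57.3 and 62.8 FPKM after DS-5272, in the same order. In both groups replicate 1 was the lowest sample, unlike for Clec4n and the Clec7a entry in the vehicle group (log2FC 1.97, SE 0.26, limma adjusted p = 0.0032).

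The DCIR subfamily holds both inhibitory and activating-type receptors, and its 3 members here all rose. Clec4a3 (DCIR3) was at 3.72, 2.996 and 3.44 FPKM with vehicle and at 25.2, 28.5 and 39.9 FPKM with DS-5272, or a log2FC of 2.85 (SE 0.18, limma adjusted p = 0.00061). Clec4a1 (DCIR4) was at 2.52, 2.55 and 2.77 FPKM with vehicle and at 14.6, 18.2 and 22.3 FPKM with DS-5272, or a log2FC of 2.41 (SE 0.16, limma adjusted p = 0.00065). These genes were the lowest of the rising receptors in the vehicle samples, and each had a narrow spread there. Clec4a2 (DCIR1), the subfamily member with the inhibitory motif, was at 21.5, 35.8 and 41.8 FPKM with vehicle and at 66.8, 77.5 and 106 FPKM with DS-5272. Replicate 1 was again the lowest sample of each group, and the change was the smallest of the 8 that passed (log2FC 1.34, SE 0.28, limma adjusted p = 0.0098). Of the different 100-base windows in the annotated transcripts of Clec4a2, 2.14% also occur in Clec4a4, while Clec4a1 and Clec4a3 share none with another gene. Only exact matches over 100 bases, the read length, were counted. How trimmed reads or reads with mismatches were assigned among these genes was not tested.

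Clec12a encodes MICL, an inhibitory receptor for uric acid crystals that is also known as a surface antigen of AML cells. It was at 73.6, 98.1 and 135 FPKM in the vehicle samples and at 94.2, 148 and 161 FPKM in the DS-5272 samples. The groups overlapped, and within each of the same-numbered pairs the DS-5272 sample was the higher one. Its log2FC of 0.40 had a 95% confidence interval from −0.27 to 1.06 (limma adjusted p = 0.276). Blocking on replicate number gave limma adjusted p = 0.020, so that 9 receptors were higher and none lower in the blocked fit, which called 30.3% of all tested genes higher and 24.9% lower.

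Clec10a encodes the macrophage galactose-type lectin MGL1, which binds galactose and N-acetylgalactosamine. It was at 5.90, 3.98 and 4.01 FPKM with vehicle and at 5.19, 2.86 and 3.60 FPKM with DS-5272. Here replicate 1 was the highest sample of both groups, and the groups overlapped (log2FC −0.22, 95% confidence interval −0.73 to 0.30, limma adjusted p = 0.439). Windows shared with its paralog Mgl2 made up 2.64% of those in the Clec10a transcripts. Of the 10 receptors, only Clec10a had a lower mean with DS-5272 than with vehicle.

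**Figure D2:**
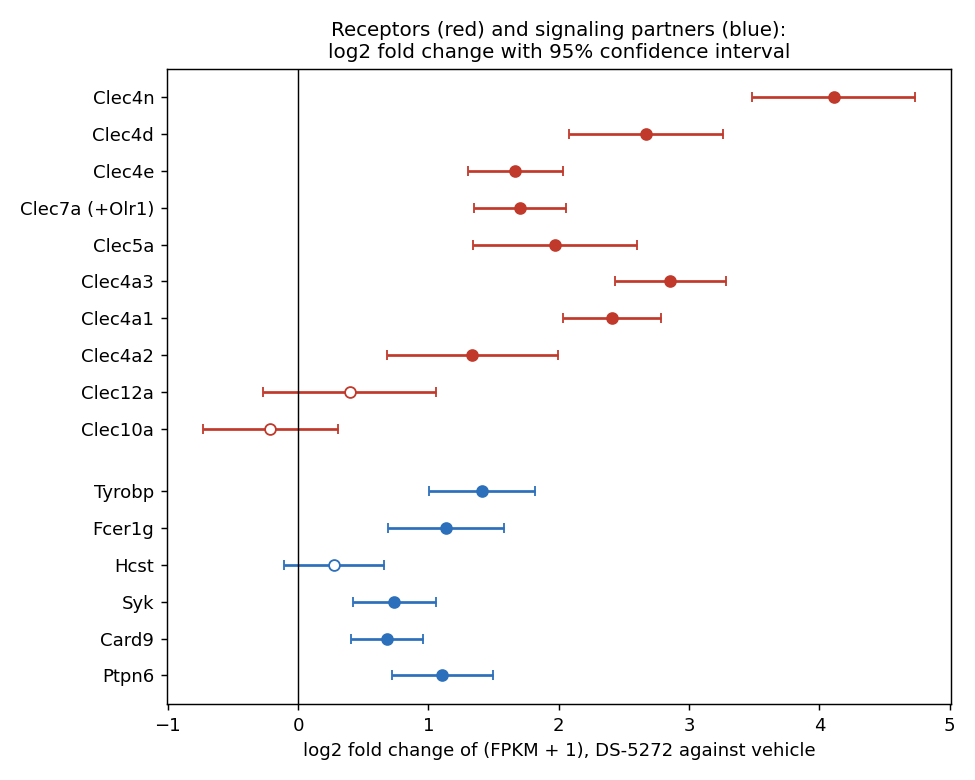
Log2 fold change of FPKM + 1 in DS-5272 against vehicle samples, with 95% confidence intervals from limma, for the 10 receptors in red and 6 signaling partners in blue. Filled points passed an adjusted p of 0.05 and open points did not, and the intervals of Clec12a, Clec10a and Hcst include 0.

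The order of receptor levels changed between the groups. FPKM values are per transcript length and can be set beside each other. With vehicle Clec12a was the highest receptor in all 3 samples, followed by Clec4e, although their ranges over the samples overlapped, and then by the Clec7a entry and Clec4a2, whose ranges overlapped as well. Clec4n, Clec4d and Clec5a formed the next group and overlapped, and Clec10a, Clec4a3 and Clec4a1 came last. With DS-5272 Clec4e was the highest in all 3 samples and Clec4n the next, with Clec4n reaching 188 FPKM and Clec4e starting at 193 FPKM. Clec12a and the Clec7a entry overlapped in the next places. Clec4d overlapped with Clec4a2 and with Clec5a, whose values lay below those of Clec4a2. Clec4a3, Clec4a1 and Clec10a held the last places in that order.

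As a share of the summed FPKM of the 10 receptors, Clec12a made up 28.4%, 34.4% and 40.3% in vehicle replicates 1, 2 and 3 and 11.4%, 16.5% and 14.2% in DS-5272 replicates 1, 2 and 3. The share of Clec4n went from 5.72%, 2.64% and 2.04% to 21.4%, 18.0% and 16.6%. Clec4e kept between 21.6% and 25.3% in the 6 samples. Clec12a thus took a smaller part of the receptor mRNA in each DS-5272 sample than in any vehicle sample, while its mean level was 102 ± 31.1 FPKM with vehicle and 134 ± 35.4 FPKM with DS-5272 (SD, n = 3). For Clec4a2, which also has an inhibitory motif, the shares were 8.28% to 12.6% with vehicle and 8.09% to 9.39% with DS-5272 and overlapped.

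Responses of single receptors were compared within samples as the difference of their log2(FPKM + 1) values, over 45 pairs. Between Clec4e and Clec4n this difference was 2.07 to 3.26 with vehicle and 0.23 to 0.55 with DS-5272. Between Clec4n and Clec12a it was −4.12 to −2.24 with vehicle and 0.12 to 0.90 with DS-5272. For Clec4e and the Clec7a entry it was 0.30 to 0.87 with vehicle and 0.50 to 0.82 with DS-5272, and the values overlapped. Exact two-sided permutation tests gave p = 0.1 for the pairs of Clec4n with Clec4e and with Clec12a, the smallest p that 3 samples against 3 allow, and 0.8 for Clec4e with the Clec7a entry. The groups did not overlap in 37 of the 45 pairs, and each of those gave this same p of 0.1. After Benjamini-Hochberg adjustment over the 45 pairs no exact p can pass, with 0.122 the smallest adjusted value.

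**Figure D3:**
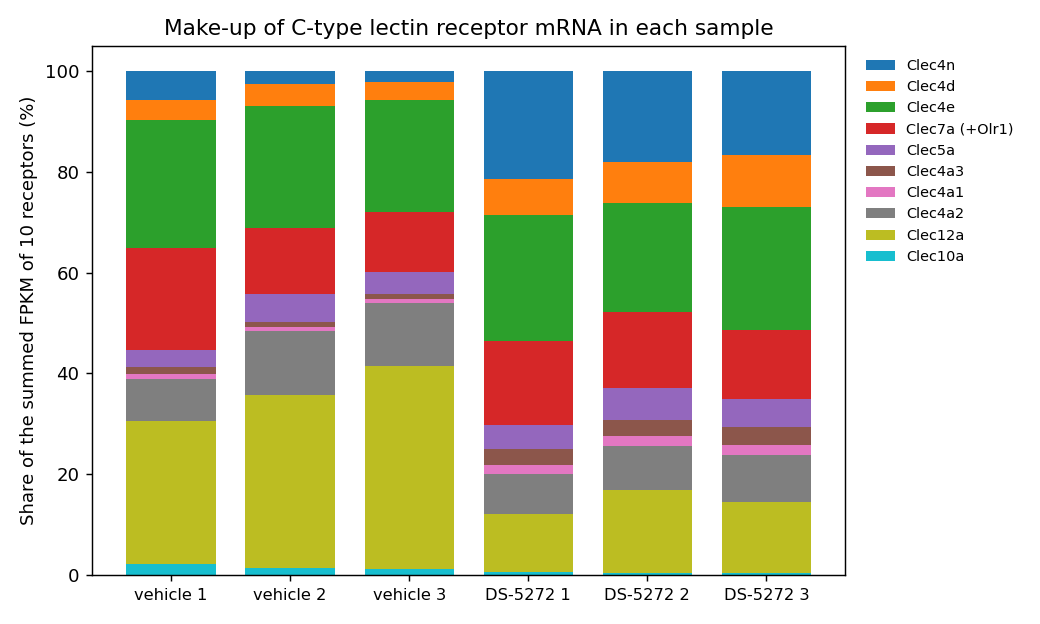
Share in percent of each receptor in the summed FPKM of the 10 receptors, for each of the 6 samples. Clec12a takes 28.4% to 40.3% of the vehicle bars and 11.4% to 16.5% of the DS-5272 bars, and the share of Clec4n is larger in each DS-5272 bar than in any vehicle bar.

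By position, 9 of the 10 receptors lie on chromosome 6 and Clec10a lies on chromosome 11 (chr11:70156197-70170834, plus strand, GRCm38). The 6 Clec4 genes span 368.0 kb, from Clec4a1 (chr6:122921848-122934619, plus strand) over Clec4a3, Clec4a2, Clec4n (chr6:123229843-123247021, plus strand) and Clec4d to Clec4e (chr6:123281789-123289870, minus strand). All 6 were called higher. The family members between them that were not among the 10 gave mixed values. Clec4b1 rose from a mean of 0.362 FPKM to one of 2.16 FPKM (log2FC 1.17, limma adjusted p = 0.0086), Clec4b2 had means of 1.32 and 0.9999 FPKM (log2FC −0.19, limma adjusted p = 0.562), and Clec4a4 was below the filter at 0.0508 and 0.273 FPKM.

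Outside the cluster on the Clec4a1 side, Necap1 and Foxj2 were higher by 0.75 and 0.80 on the log2 scale (limma adjusted p = 0.0089 and 0.0073), Slc2a3 did not pass (log2FC 0.9996, limma adjusted p = 0.0655), and C3ar1, Nanog and Dppa3 were below the filter. On the Clec4e side, the vomeronasal receptor genes Vmn2r19, Vmn2r20 and Vmn2r21 had means of at most 0.0030 FPKM. Farther along the chromosome, Clec12a (chr6:129342691-129365303, plus strand) and Clec7a (chr6:129461591-129472779, minus strand) flank Clec12b, Clec1b, Clec9a and Clec1a, of which only Clec1b passed the filter, at means of 0.413 and 1.93 FPKM (limma adjusted p = 0.295). Clec5a (chr6:40574894-40585821, minus strand) stands alone. No exon of any of the 10 receptors overlaps an exon of another gene in the GENCODE annotation.

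**Figure D4:**
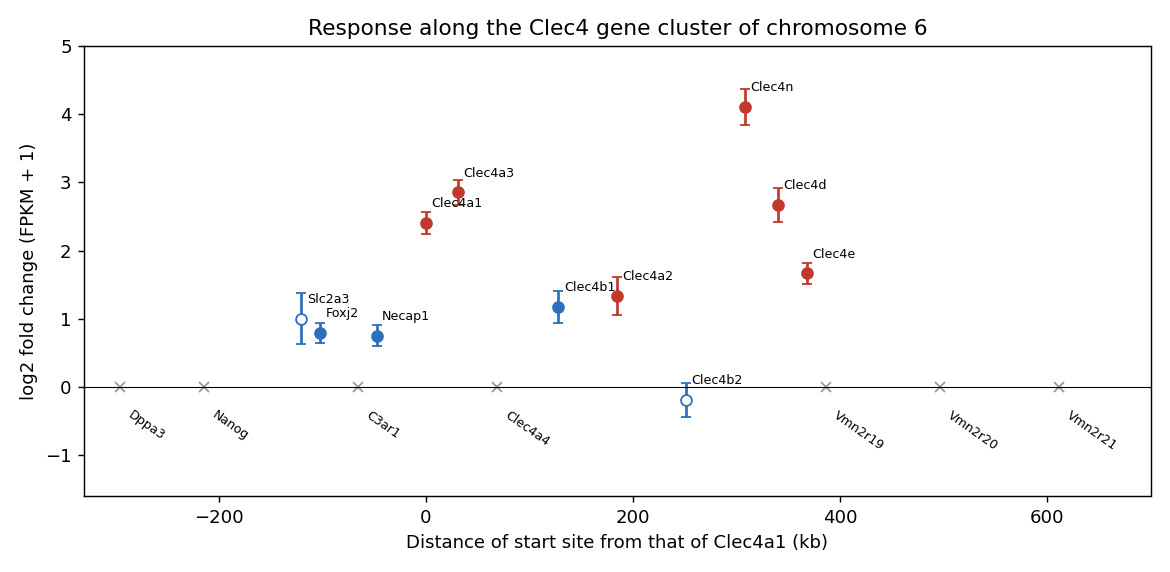
Log2 fold change with its standard error against the distance in kb of each gene's start site from that of Clec4a1, for protein-coding genes in the Clec4 cluster and 300 kb on each side. Red points are the 6 Clec4 receptors, blue points are other tested genes, filled points passed an adjusted p of 0.05, and gray crosses on the zero line mark genes below the filter, which have no fold change. Clec4n stands highest at 4.11, and Clec4b2 is the tested gene below 0.

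Promoter sequences of RefSeq (GRCm38.p6), which run from 250 bases before to 50 bases after a start site, were given for 8 of the receptors in 10 windows, and Clec4n and Clec10a had none. The letters GAGGAA, the core bound by the myeloid ETS factor PU.1, occurred on either strand in 8 of the 10 windows, which belong to 7 of the 8 receptors, and in 28.3% of all 32851 promoter windows. Clec4a2 was the receptor without them, and Clec12a, whose mRNA did not pass the test, had them. The 2 windows of Clec7a overlap and hold the same match, 96 and 90 bases before their starts, so it counts in both. The AP-1 motif TGANTCA was in 2 of the 10 windows (7.81% of all), the C/EBP motif TTGCNNAA in 2 (10.8% of all) and the interferon-stimulated response element, a repeat of GAAA with 2 bases between, in that of Clec4d only (3.44% of all). The NFKB motif and the p53 half-site were in none of the 10, against 4.51% and 8.36% of all windows. Both strands were searched, and matches of different motifs may overlap. A match is a description of the letters and not of a bound site.

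The 250 bases before the RefSeq start are shown, 5′ to 3′ on the strand of the gene, with GAGGAA or its reverse complement in capitals. The 3 receptors shown are among those that rose, Clec7a as its joined entry, and whose stretch holds no annotated exon. They are Clec4e (chr6:123289872-123290121, minus strand), Clec4a1 (chr6:122921598-122921847, plus strand) and Clec7a (chr6:129472780-129473029, minus strand, the first of its 2 windows). The matches began 123 and 56 bases before the start of Clec4e, 217 and 187 before that of Clec4a1 and 96 before that of Clec7a. Clec4d, with 1 match 240 bases before its start, and the first window of Clec4a3, with no match, also hold no exon and are not shown.
Clec4e: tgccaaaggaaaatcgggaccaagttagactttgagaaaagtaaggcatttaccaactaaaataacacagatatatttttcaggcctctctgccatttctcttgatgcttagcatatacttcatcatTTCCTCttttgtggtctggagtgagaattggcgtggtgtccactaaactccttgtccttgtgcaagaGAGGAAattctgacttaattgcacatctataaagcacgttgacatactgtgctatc
Clec4a1: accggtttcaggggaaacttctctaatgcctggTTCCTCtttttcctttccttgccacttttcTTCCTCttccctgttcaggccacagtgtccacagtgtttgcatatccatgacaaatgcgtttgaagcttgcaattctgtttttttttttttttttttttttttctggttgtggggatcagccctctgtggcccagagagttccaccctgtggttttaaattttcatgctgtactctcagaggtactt
Clec7a: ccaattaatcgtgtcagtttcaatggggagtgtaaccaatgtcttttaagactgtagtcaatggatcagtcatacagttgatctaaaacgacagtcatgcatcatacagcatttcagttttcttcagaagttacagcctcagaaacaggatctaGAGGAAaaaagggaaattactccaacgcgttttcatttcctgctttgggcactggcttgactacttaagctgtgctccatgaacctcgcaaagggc

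Most of the partners through which these receptors signal rose as well, by a smaller median than that of the receptors, a difference that was not tested. Of 33 listed adaptors, kinases, effectors, phosphatases and transcription factors, 30 were tested. Of these, 20 were higher, 1 was lower and 9 did not pass, with a median log2 fold change of 0.71. Over all tested genes 24.2% were higher and 22.0% lower. The count of 20 was 15 without vehicle replicate 2, 16 without vehicle replicate 1, 17 with scaling to a common total and 23 without DS-5272 replicate 1. In the same order 1623, 1940, 1717 and 2934 of all 11130 tested genes were called higher, against 2697. Both adaptors with an ITAM rose. Tyrobp (DAP12) was at 556, 617 and 622 FPKM with vehicle and at 1358, 1505 and 1962 FPKM with DS-5272, and the groups did not overlap (log2FC 1.41, SE 0.17, limma adjusted p = 0.0024). Fcer1g was at 432, 518 and 561 FPKM with vehicle and at 903, 1090 and 1345 FPKM with DS-5272 (log2FC 1.13, SE 0.19, limma adjusted p = 0.0054). Hcst, which encodes the adaptor DAP10 without an ITAM, had means of 27.5 ± 4.26 and 33.5 ± 5.17 FPKM (SD, n = 3), and its call did not pass (limma adjusted p = 0.193).

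Syk rose from 54.5 ± 1.16 to 92.4 ± 15.8 FPKM (mean ± SD, n = 3, log2FC 0.74, limma adjusted p = 0.0067) and Card9 from 134 ± 8.71 to 215 ± 22.2 FPKM (log2FC 0.68, limma adjusted p = 0.0059). The partners of Card9, Bcl10 and Malt1, did not pass (limma adjusted p = 0.110 and 0.0948), although Bcl10 did when blocked on replicate number (adjusted p = 0.0055). On the log2(FPKM + 1) scale the largest rises on the list were those of Fgr, a SRC-family kinase of myeloid cells, and of Irf5, a transcription factor of inflammatory genes. Their log2 fold changes were 2.93 and 2.12 (limma adjusted p = 0.0033 and 0.00099). Of the phosphatases that the inhibitory receptors recruit, Ptpn6 (SHP-1) rose from 193 ± 10.3 to 423 ± 86.2 FPKM (limma adjusted p = 0.0040). Ptpn11 (SHP-2) fell by 0.28 on the log2 scale (limma adjusted p = 0.048), a call that was lost in 8 of 16 alternatives, among them every fit without 1 sample (adjusted p from 0.0508 to 0.156). Exons of Card9, Ptpn6 and Irf5 overlap those of Gm13562, Gm20531 and Tnpo3, and the sources used here do not say whether strand was used in quantification.

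Cytokines, chemokines and other genes known to follow SYK and CARD9 signaling differed widely between samples of a group. Of 20 listed genes 14 were tested, 7 were higher (3 cytokine genes, 2 chemokine genes and the transcription factor genes Egr2 and Egr3), none was lower and 7 did not pass, with a median log2 fold change of 1.96. Over all tested genes 24.2% were higher and 22.0% lower. Blocking on replicate number raised the count from 7 to 13, and the share of all tested genes called higher to 30.3%. Il1b, the interleukin 1 beta gene, was at 1.012, 9.63 and 12.99 FPKM with vehicle and at 30.5, 194 and 347 FPKM with DS-5272. Replicate 1 was the lowest sample of each group, and the groups did not overlap (log2FC 4.27, SE 1.05, limma adjusted p = 0.017, and 0.054 without DS-5272 replicate 2). Its exons overlap those of Il1bos.

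The chemokine genes Ccl4 and Ccl2, whose products attract lymphocytes and monocytes, had the next largest rises on the log2(FPKM + 1) scale. By the ratio of group means the low gene Il1a came first, at 27.2 (means of 0.123 and 3.35 FPKM, limma adjusted p = 0.015). Il1a and Egr3 (means of 0.676 and 3.46 FPKM) passed the filter only through their DS-5272 values, so only a rise could bring them into the test. Ccl4 was at 11.3, 32.3 and 30.3 FPKM with vehicle and at 142, 396 and 588 FPKM with DS-5272 (log2FC 3.79, limma adjusted p = 0.0047). Ccl2 was at 0.265, 2.65 and 4.85 FPKM with vehicle and at 12.7, 66.1 and 65.2 FPKM with DS-5272 (log2FC 3.71, limma adjusted p = 0.010). Replicate 1 was again the lowest of each group, as it was for Clec5a and Clec4a2.

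Other genes of the C-type lectin fold were mostly below the filter. Of 54 further family members 52 were listed, 5 of them at 0 in all 6 samples, and 20 were tested, of which 11 were higher, 2 were lower and 7 did not pass, with a median log2 fold change of 0.74. Over all tested genes 24.2% were higher and 22.0% lower. The count of 11 fell to 7 without vehicle replicate 2 and to 6 without vehicle replicate 3. Over all 11130 tested genes the count of 2697 fell to 1623 and 1799 in these fits. Under a filter of a mean of at least 5 FPKM, 6 of the 11 genes then tested were higher, and 2298 of 8569 over all genes. On the log2(FPKM + 1) scale the largest rises were those of the scavenger receptor gene Colec12 (1.30 ± 0.217 to 5.02 ± 0.238 FPKM, SD, n = 3, limma adjusted p = 0.0012), of Sele, which encodes E-selectin (1.89 ± 0.0523 to 6.41 ± 3.999 FPKM, limma adjusted p = 0.026), and of Clec2i (14.8 ± 2.65 to 35.0 ± 6.18 FPKM, limma adjusted p = 0.0039), while by the ratio of group means the low gene Clec4b1 came first at 5.98. The call for Sele was lost without any one of the vehicle samples (adjusted p from 0.0670 to 0.0741) and without a filter. Clec4b1 and Selp, with vehicle means of 0.362 and 0.580 FPKM, passed the filter only through their DS-5272 values.

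Clec11a, which encodes a secreted growth factor of hematopoietic progenitors and bone, went the other way. It fell by 3.18 on the log2 scale, from 32.1 ± 2.52 to 2.80 ± 1.41 FPKM (mean ± SD, n = 3, SE 0.25, limma adjusted p = 0.00079). Klrb1f fell by 1.03 from 12.8 ± 3.26 to 5.95 ± 2.58 FPKM (limma adjusted p = 0.027), a call lost in 5 of 16 alternatives (adjusted p from 0.0572 to 0.0846).

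For each receptor, the gene outside the 10 with the most similar profile was found by Pearson's r of log2(FPKM + 1) over the 6 samples, given as a description because the samples share their 2 groups. Clec4n was closest to Cfp, the properdin gene (r = 0.9999), Clec4d to Tyrobp (0.9998), Clec4e to 3110002H16Rik (0.9996), the Clec7a entry to Cxcl16 (0.9988) and Clec5a to Fxc1 (0.9986), which unlike Clec5a did not pass (limma adjusted p = 0.073). Clec4a1 was closest to LOC100038947 (0.9996), Clec4a2 to Sema4a (0.9982) and Clec4a3 to Plekho2 (0.9994). Clec12a was closest to Klf11 (0.9909), which also passed only in the blocked fit (limma adjusted p = 0.013), and Clec10a to the joined entry of Zbtb26 and Zbtb6 (0.9864).

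Summed markers of myeloid cells were higher with DS-5272, like the receptors, while single markers differed. The call for higher expression was made for 24.2% of all tested genes. The summed FPKM of 12 neutrophil markers was 466 to 2630 with vehicle and 5180 to 21600 with DS-5272, and 10 of the 12 were called higher. Of these, Ly6g (means of 0.2075 and 2.44 FPKM) passed the filter only through its DS-5272 values. For 8 monocyte markers the sum was 1420 to 1430 with vehicle and 1700 to 1940 with DS-5272, with 5 of 7 tested genes higher. Ly6c2 and F13a1, which were high in both groups, had lower means with DS-5272 and did not pass. The means were 880 and 693 FPKM for Ly6c2 (limma adjusted p = 0.186) and 315 and 262 FPKM for F13a1 (limma adjusted p = 0.155). For the 11 listed of 12 resident macrophage markers the sum was 47.4 to 94.4 with vehicle and 126 to 416 with DS-5272. Of 10 tested genes 4 were higher, and DS-5272 replicate 1 held the highest sum. Vcam1 made up most of each vehicle sum, at 36.6, 64.1 and 82.8 FPKM in replicates 1, 2 and 3. It was at 143, 74.8 and 85.7 FPKM with DS-5272, and the groups overlapped (limma adjusted p = 0.125). The paper reports VCAM-1 protein as higher in c-Kit+ leukemia cells after DS-5272. The 4 genes called higher, C1qa, C1qb, C1qc and Siglec1, had means of 1.36 to 2.15 FPKM with vehicle and 17.3 to 29.3 FPKM with DS-5272. No gene of these lists that was listed stood at 0 in all samples. Their part in the rise of the receptors was not tested, and in these bulk samples a change in the share of cells of a type and a change in RNA per cell cannot be told apart. Without DS-5272 replicate 1, 8 receptors were again called higher and none lower. The macrophage sum was also above its vehicle range in DS-5272 replicates 2 and 3, at 126 and 151 FPKM, so this fit did not remove that signal.

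Sums for lymphoid cells were low in both groups. For 8 NK cell markers they were 1.62 to 2.88 FPKM with vehicle and 3.35 to 5.01 FPKM with DS-5272. For the 5 listed T cell markers they were 0.279 to 0.396 FPKM with vehicle and 0.600 to 3.47 FPKM with DS-5272. Cd4, at 3.28 FPKM, made up most of the highest T cell sum, that of DS-5272 replicate 1. For the 5 listed B cell markers the sums were 4.29 to 5.02 FPKM with vehicle and 3.39 to 4.29 FPKM with DS-5272. Sums for the 11 listed dendritic cell markers were 92.6 to 137 FPKM with vehicle and 134 to 221 FPKM with DS-5272. Only 3 of these dendritic cell markers were tested, and they went opposite ways, with Bst2 (means of 69.6 and 160 FPKM, limma adjusted p = 0.0077) and Itgax (0.582 and 6.40 FPKM, adjusted p = 0.0045) higher and Flt3 (39.1 and 1.83 FPKM, adjusted p = 0.00069) lower. Erythroid markers, 6 of which were listed, summed to 2.47 to 4.63 FPKM with vehicle and 12.7 to 146 FPKM with DS-5272.

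**Figure D5:**
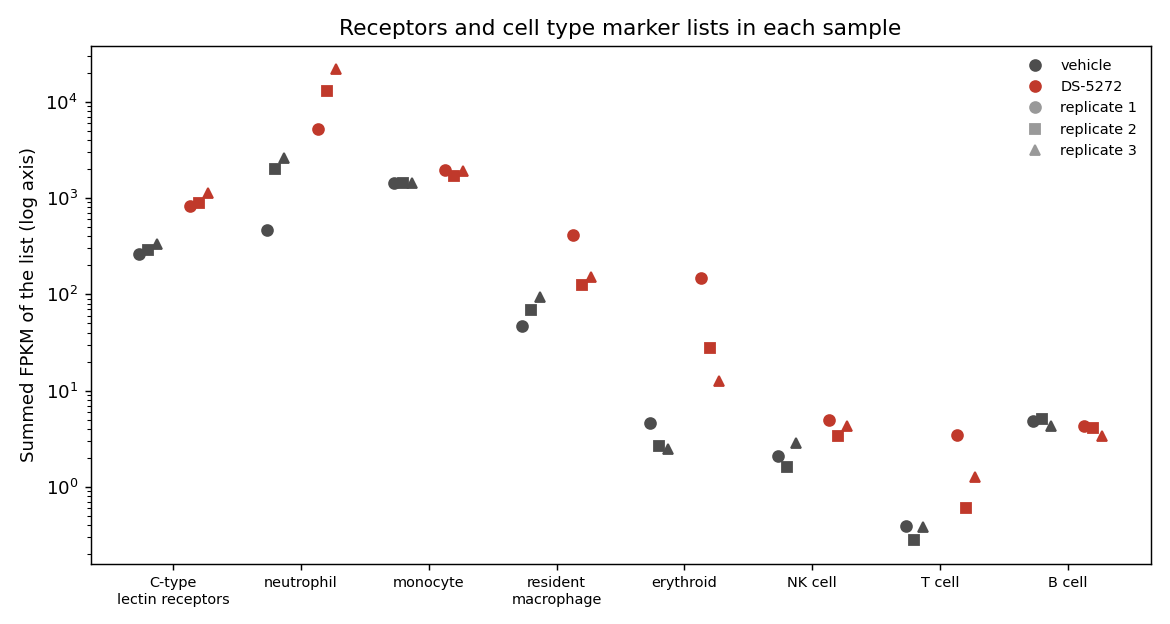
Summed FPKM on a log axis of marker lists in each of the 6 samples, with vehicle in gray and DS-5272 in red. The neutrophil sums are 466 to 2630 with vehicle and 5180 to 21600 with DS-5272, and the T cell sums stay at or below 3.47.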

How the data were processed

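RNA-Seq was done on 3 vehicle and 3 DS-5272 samples. The authors deposited FPKM values per gene, and the submitters' processing notes name cutadapt 1.8.1, FastQC, TopHat2 2.1.1, Cufflinks 2.2.1 and the build GRCm38. No counts were given, so depth is known only relative to vehicle replicate 1 and no counting interval is given. The table held 26632 rows with 26082 different names. Rows sharing a name were summed, and 433 rows join several genes. Differential expression was tested with limma 3.58.1 in R 4.3.3 on log2(FPKM + 1), with a mean-variance trend, two-sided, for 11130 genes averaging 1 FPKM or more, and Benjamini-Hochberg adjustment over all of them at 0.05. Fold changes on this scale understate those of low genes. A gene with a vehicle mean below 1 FPKM could pass the filter only through its DS-5272 values, so only a rise could bring it in. This holds for Il1a, Egr3, Clec4b1, Selp, Ly6g, Mef2c and Itgax, among others. The fit was tested on simulated data. Same-numbered samples deviated together (correlations of deviations 0.66, 0.21 and 0.43), each above the limit of 0.1 used here, on the data alone. The sources name no pairing. The calls given here come from the fit without it unless a block on replicate number is named. Samples with different numbers gave −0.58 to 0.34, the highest for vehicle 2 with DS-5272 3, so replicates 2 and 3 were not matched one to one. The receptors and gene lists were chosen with earlier results of these data known. All 10 receptors were named, with Fcer1g, Tyrobp, Hcst, Syk, Card9 and Ptpn6, the 3 largest rises and falls past the threshold of each related list, and the most similar gene per receptor. Of these, 1 gene is not reported here. Neighbors were named by position. Mdm2 and the other p53 targets, Bcl10, Malt1, Il1a, Egr2, Egr3, Selp, Ly6c2 and F13a1 were named after their values were seen. So were Ly6g, Vcam1, C1qa, C1qb, C1qc, Siglec1, Cd4 and the leukemia and dendritic cell markers. Positions are from GENCODE M21 and promoters from RefSeq. Alternatives were the pseudocount, the filter, 4 scalings, the block, no trend, the highest row per name and leaving out each sample.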

Additional observations from a re-analysis of the deposited data

How the results depend on the processing

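The 8 receptors called higher kept their direction and call under all 16 alternatives, and none was called lower. The count was 8 in each fit without 1 sample and 9 with the replicate block, which added Clec12a and changed no other receptor's call. The least certain was Clec4a2, with adjusted p up to 0.0327. Clec12a had log2 fold changes of 0.18 to 0.63 without 1 sample. A mean of at least 5 FPKM removed Clec10a. Rescaling to a common total moved the median log2 fold change of all genes from 0.04 to −0.21. Among signaling partners, 20 genes were higher, against 17 with a common total and 15 to 23 without 1 sample. The 1 gene called lower became 3 after upper quartile, common total or quantile scaling and 2 after median ratio scaling. That count was 0 without the trend and in each fit without 1 sample. Of 14 tested SYK-CARD9 readouts 7 were called higher, against 4 of 10 with a mean of at least 5 FPKM. The count was 13 with the replicate block and 6 to 11 without 1 sample, with 11 without DS-5272 replicate 1. Of 20 tested other lectin genes 11 were called higher, against 6 of 11 with a mean of at least 5 FPKM. Without 1 sample the count was 6 to 11, and the 2 called lower became 1 to 2. Over all genes, 2697 higher became 1717 with a common total and 1623 to 2934 without 1 sample, with 1623 without vehicle replicate 2. With a mean of at least 5 FPKM 2298 of 8569 genes were higher. The 2451 lower became 1389 to 2432, with 1389 and 1492 without vehicle replicates 2 and 3. Counts moved both ways without 1 sample, and the cause was not tested. Fits without 1 sample hold fewer samples, and stricter filters hold fewer genes.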

Other observations

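Among lectin genes that did not pass the test, Mrc1 and Clec1b stood out in 1 sample, and they were chosen after their values were seen. Mrc1, the macrophage mannose receptor, was at 0.507, 0.182 and 0.583 FPKM with vehicle and at 9.41, 0.656 and 0.887 FPKM with DS-5272, in the order of the replicate numbers. Clec1b, the podoplanin receptor CLEC-2, was at 0.383, 0.210 and 0.645 FPKM with vehicle and at 4.86, 0.363 and 0.579 FPKM with DS-5272. The macrophage marker Cd5l had the same high sample, at 61.7 FPKM in DS-5272 replicate 1 against 1.76 and 4.43 FPKM in the other DS-5272 samples. The receptor Clec10a, at 5.19 FPKM in that sample, lay within its vehicle range there.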
